A study of Sus scrofa with 8 samples.

Results

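GABAergic amacrine nuclei of the pig retina were taken from single-nucleus RNA sequencing (snRNAseq) of 8 retinas. A barcode was a member if it held at least 1000 unique molecular identifiers (UMIs, each counting 1 transcript), at least 3 UMIs of GAD1 and GAD2 together, no UMI of SLC6A9, and at most 1 UMI each over CHAT and SLC5A7, over ONECUT1, ONECUT2 and LHX1, and over TRPM1, GRM6, PTPRC and PDE6C. In all, 17704 of 388491 barcodes were members, or 4.86% of the 364259 barcodes with at least 1000 UMIs. The members were thus chosen by the levels of these genes, which are given as a description and not tested.
In female Yucatan minipigs aged 3 to 5 months, AAV2.7m8/CAG-GFP, a vector whose CAG promoter is ubiquitous, or vehicle alone was injected into the vitreous of both eyes. All animals, those given vehicle included, had received Vitrase (a hyaluronidase) in both eyes beforehand and were given methylprednisolone weekly. Nuclei came from flash-frozen globes and were sorted by DAPI. Week 2 is represented by both eyes of a single animal per group and has no test of its own. Week 4 is represented by 1 left eye from each of 2 animals per group. Its p-values rest on the spread between these animals, which the fit shares in part across genes. Comparisons of classes of nuclei, and of nuclei with and without the transgene, were made within retinas or animals. Each of the 4 groups is its own batch in the labels, without a word on which step the batch refers to, and the effects of batch and vector cannot be told apart.
Amacrine cells are the inhibitory interneurons of the inner retina, which shape the signal passed from bipolar cells to ganglion cells. GABAergic amacrine cells make GABA with the glutamate decarboxylases GAD1 and GAD2 and load it into vesicles with SLC32A1, while glycinergic amacrine cells take up glycine through SLC6A9. A cell that senses type I interferon signals through a complex that holds STAT2 and IRF9, which binds the interferon-stimulated response element and switches on antiviral genes.

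The retinas held between 1615 and 2665 members each, with a median of 4511 to 6421 UMIs per nucleus. The summed member UMIs per retina were 9.46 to 19.2 times 1000000. At the limit of the rule, 4875 members (27.5%) had exactly 3 UMIs of GAD1 and GAD2, and 7108 barcodes met the other limits with 2 UMIs. Of the 31135 barcodes that met the GAD limit, the limit on TRPM1, GRM6, PTPRC and PDE6C removed 7973, that on SLC6A9 4928, that on CHAT and SLC5A7 2050 and that on the horizontal cell genes 478, with some barcodes failing more than 1 limit. Among members, 42 barcode sequences occurred in more than 1 retina and 3 occurred in 2 lanes of the same retina. Summed over the members of a retina, GAD2 was at 746 to 869 CPM (counts per 1000000 member UMIs) and GAD1 at 160 to 211 CPM. The transcription factors PAX6, at 405 to 577 CPM, and TFAP2B, at 253 to 275 CPM, were likewise detected in every retina. SLC32A1, the vesicular transporter, was sparse at 7.14 to 10.2 CPM. The glycinergic markers SLC6A9, SLC6A5 and NEUROD2 together made up 0.528 to 1.98 CPM, with SLC6A9 at 0 by the rule.
The label GABAergic amacrine held for only part of the members. At least 1 UMI over PAX6, TFAP2A, TFAP2B and TFAP2C, the factors that mark amacrine cells, was found in 13402 members (75.7%), and none in 4302 (24.3%). Of the members without such a UMI, 87.4% had more than 5 UMIs of GRIK1, a kainate receptor on the list of bipolar markers, against 12.5% of those with one. Summed per retina, the members without factors had GRIK1 at 10130 to 16554 CPM and CABP5 at 272 to 380 CPM, both markers of bipolar cells. In the members with factors these genes were at 296 to 522 and 4.29 to 8.02 CPM. GAD2 was at 1130 to 1383 CPM in the members without factors, yet GAD1 was at 9.5 to 43.2 CPM there and at 182 to 245 CPM in those with factors. A UMI of SLC32A1 was found in 6.78% of the members with and 0.581% of those without factors, at a median of 6487.5 and 3370 UMIs per nucleus. The members are therefore called GAD-positive nuclei below, and results are also given for the nuclei with factors alone and, as a comparison added after the data were seen, for those without.
Nuclei without factors made up 25.1% and 35.1% of the members in the AAV retinas of week 4 and 16.4% and 22.9% in the vehicle retinas, without overlap between the groups. In the plot of factor-negative shares by retina, these vehicle and AAV values stand beside those of week 2, which were 22.7% and 20.7% with vehicle and 24.2% and 28.2% with AAV. A further set held at least 1000 UMIs, at least 10 UMIs of GRIK1 and no factor UMI. It also met the members' limits on CHAT and SLC5A7, on ONECUT1, ONECUT2 and LHX1, and on TRPM1, GRM6, PTPRC and PDE6C. Of these barcodes, 13.7% to 43.9% per retina met the GAD limit of 3 UMIs. The ON bipolar nuclei were chosen by at least 1000 UMIs, at least 4 UMIs of TRPM1 and GRM6 and at most 1 of PTPRC, without the other limits. Of them, 6.54% to 14.1% met the GAD limit.

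**Figure D1:**
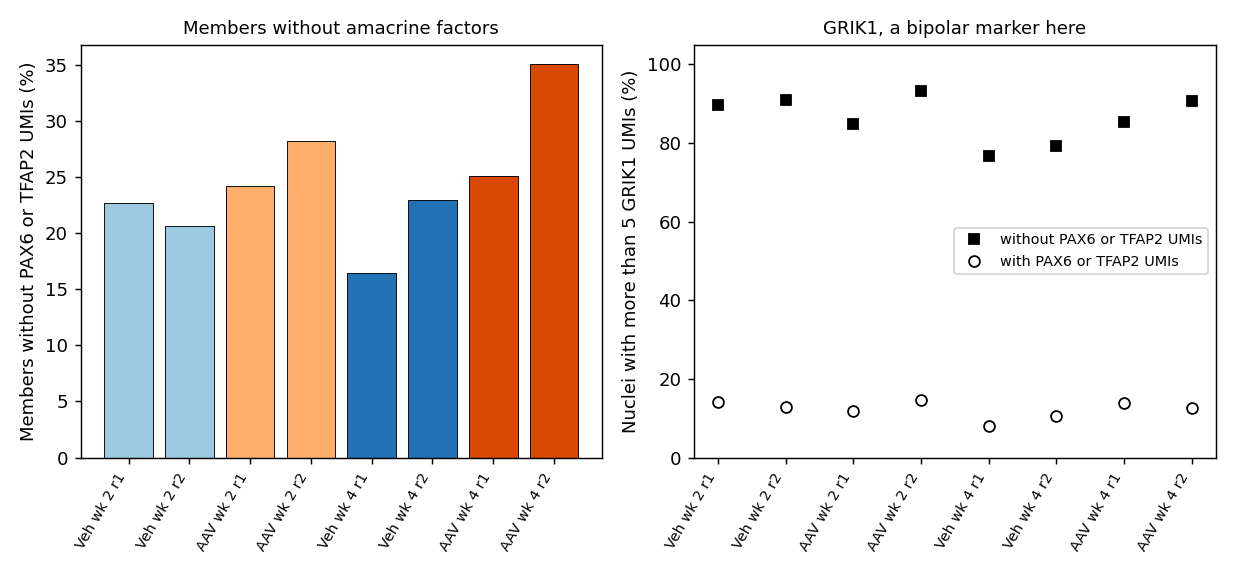
Left, bars give the percent of member nuclei of each retina without a UMI of PAX6, TFAP2A, TFAP2B or TFAP2C. Right, the percent of nuclei with more than 5 GRIK1 UMIs is given for members without (squares, 76.6% to 93.1%) and with (circles, 8.0% to 14.5%) such a UMI, which do not overlap in any retina.

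Whether the vector changed the abundance of these nuclei was asked by their share of the barcodes with at least 1000 UMIs. The share was 3.93% and 3.38% in the AAV retinas of week 4 and 3.59% and 5.05% in the vehicle retinas, so that the groups overlapped. The difference of -0.666 percentage points was not larger than the spread (exact permutation test, two-sided, p = 0.667, smallest possible 0.33). The difference was -1.93 points among barcodes with at least 2000 UMIs, where the groups did not overlap (5.86% and 4.72% against 6.15% and 8.29%, exact permutation test, p = 0.33), and -0.177 points with at least 5 GAD UMIs. At week 2 the share was 6.45% and 6.39% in the eyes of the AAV-injected and 5.09% and 5.53% in those of the vehicle-injected animal. Counting the nuclei with factors alone gave 2.94% and 2.19% against 3.00% and 3.89% at week 4 (exact permutation test, p = 0.33).

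At week 4 the main change in GAD-positive nuclei was a rise of interferon-stimulated genes (ISGs). DDX60, an RNA helicase of the antiviral response (chr14:21077491-21163563 in Sscrofa11.1), was at 107 and 135 CPM in the AAV retinas and at 0.317 and 0.347 CPM in the vehicle retinas, a log2 fold change of 8.45 ± 0.24 (SE, adjusted p = 3.21e-09). Genes of MHC class I presentation rose as well, whereas 3 of 11 genes of GABA handling and none of 18 GABA receptor genes were called. Of 18550 genes tested with edgeR, 564 (3.04%) rose and 274 (1.48%) fell with AAV at an adjusted p under 0.05, and these shares are the background against which each gene list is read. In the nuclei with factors alone, 431 genes rose and 208 fell, of which 385 and 184 were also called among all members.
Of the 60 listed ISGs, 54 were in the files and 51 were tested. Of these, 47 rose, none fell (none either at an unadjusted p under 0.05 or with DESeq2, which called 48 higher) and 4 did not pass the test, with a median log2 fold change of 4.06 against 0.0056 over all genes. Because 5 of the genes had no count in the vehicle retinas of week 4, the median was also taken with those genes at their lower bounds, which gave 3.92. In 19 of the 51 the vehicle mean was under 1 CPM, so that these genes passed the filter on low counts through the AAV retinas and could hardly be called lower, and the counts over the list are a description. The nuclei with factors gave 46 of 51 with a median of 4.10, and those without gave 31 of 40 with a median of 3.85.
MX2, a GTPase that restricts viruses, was at 37.1 and 56.0 CPM with AAV and had no UMI in the vehicle retinas. It was thus at least 321-fold higher, against 3 counts over both vehicle retinas. IFI44 was at 59.96 and 95.5 CPM with AAV and at 0.211 and 0.347 CPM with vehicle (log2 fold change 8.02 ± 0.39, adjusted p = 7.02e-06). The RNA sensor IFIH1 was at 55.3 and 71.3 CPM against 1.27 and 1.21 CPM, and its log2 fold change was 5.66 ± 0.22 (adjusted p = 2.86e-08). EIF2AK2, the kinase PKR that halts translation on double-stranded RNA, was well detected without the vector, at 66.0 and 63.9 CPM, and rose to 314 and 369 CPM (2.39 ± 0.10, adjusted p = 3.39e-08). PARP12, an antiviral ADP-ribosyltransferase, went from 6.23 and 4.86 CPM to 81.4 and 100.4 CPM (4.03 ± 0.17, adjusted p = 3.39e-08). Among the 12 largest rises were also EPSTI1 at 6.40, HERC5 at 6.11 and HERC6 at 6.16 on the log2 scale. In each of these genes both AAV retinas lay above both vehicle retinas, which the plot of interferon-response genes shows for 13 genes at both weeks. Over all genes tested at week 4, 25.8% lay higher without overlap, and the rule for the largest rises asked for no overlap.
IFI6 and IFI44L, both ISGs, rose by 7.97 ± 0.73 (adjusted p = 0.0353) and 6.27 ± 0.36 (adjusted p = 0.00127). Both lost the call when either vehicle retina was left out, IFI6 with an adjusted p of up to 0.459 and IFI44L of up to 0.138, and IFI6 also in the nuclei with factors alone (adjusted p = 0.0573). MX1 and MX2, IFI44 and IFI44L, and HERC5 and HERC6 are related gene pairs, and reads shared between near copies could be counted for either.
The ISG list was also counted per nucleus. At least 1 UMI of the ISG list was found in 98.8% and 99.6% of the members of the AAV retinas of week 4, with a median of 10 and 14.5 UMIs, and in 83.2% and 78.8% of those of the vehicle retinas, with a median of 2 UMIs in each. Since the share with a UMI was high in vehicle too, it does not give the share of nuclei that respond. Summed, the list made up 2287 and 3125 CPM with AAV and 409 and 396 with vehicle. DDX60 alone had a UMI in 28.6% and 35.1% of members with AAV and in 0.186% and 0.188% with vehicle. Over all barcodes with at least 1000 UMIs, the ISG list made up 3402 and 4023 CPM in the same AAV retinas and 630 and 568 in the vehicle retinas, so that members lay below the whole retina in both groups. The rod list, which amacrine nuclei should lack, was at 575 to 940 CPM in members and 4286 to 6357 CPM over all barcodes. The part of RNA from other cells in the ISG levels was not tested.

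**Figure D2:**
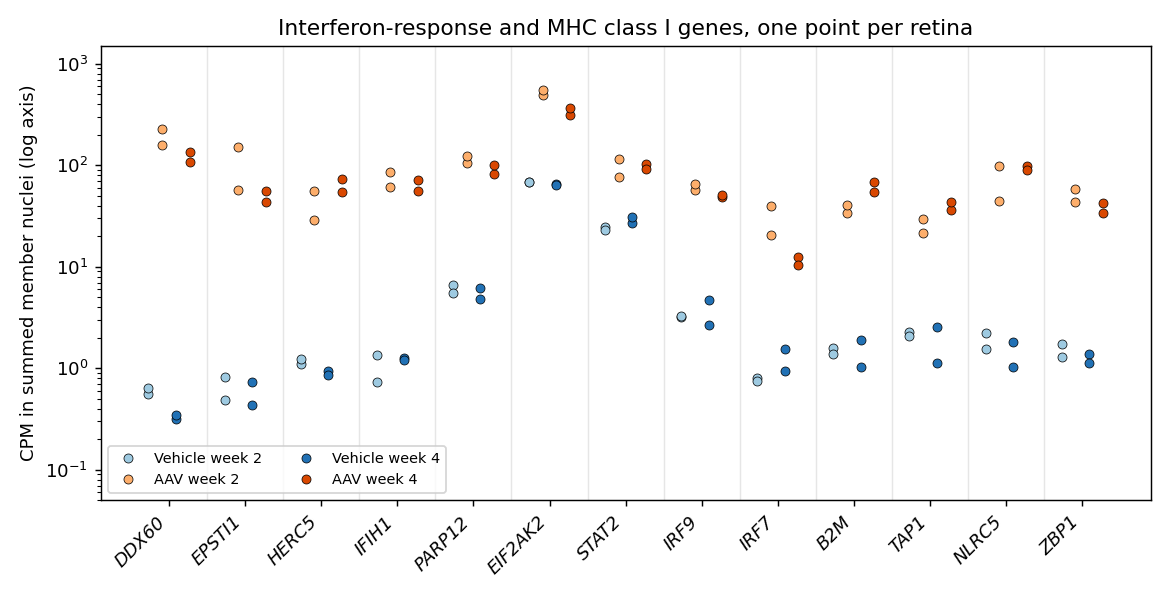
Each point is 1 retina and gives the CPM of the gene over its summed member nuclei on a log axis, with vehicle in blue and AAV in orange for weeks 2 (light) and 4 (dark). For each of the 13 genes both AAV points lie above both vehicle points of the same week.

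The promoters of the named ISGs and MHC class I genes were searched for the sequence that the interferon-activated complex is known to bind, and most held no match. In the 250 bases before the RefSeq gene start (Sscrofa11.1), the response element was taken as GAAANNGAAA on either strand. It was found in 18 of the 51 listed ISGs with a promoter (35.3%), and in 588 of 19544 promoters of protein-coding genes (3.01%). Of the 43 ISGs with a promoter that rose at week 4, 16 held a match. Of the 19 genes with a promoter that were named as a largest rise or by adjusted p from the ISG and MHC class I lists, the 6 below held at least 1 match, and their windows are printed 5′ to 3′ on the gene's strand with every match in capitals, as either the motif or its reverse complement.
B2M (chr1:126844044-126844293, minus strand): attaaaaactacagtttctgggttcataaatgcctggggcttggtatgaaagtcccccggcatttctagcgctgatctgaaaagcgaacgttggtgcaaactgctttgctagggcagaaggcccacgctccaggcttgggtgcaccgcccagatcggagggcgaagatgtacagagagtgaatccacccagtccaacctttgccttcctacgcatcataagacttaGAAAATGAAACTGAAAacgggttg
HERC5 (chr8:130591159-130591408, minus strand): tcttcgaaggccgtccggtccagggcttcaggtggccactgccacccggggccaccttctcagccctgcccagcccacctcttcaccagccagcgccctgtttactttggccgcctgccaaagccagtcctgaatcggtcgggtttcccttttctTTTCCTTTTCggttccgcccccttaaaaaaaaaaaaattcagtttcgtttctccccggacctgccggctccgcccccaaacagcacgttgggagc
IFI44L (chr6:134679213-134679462, minus strand): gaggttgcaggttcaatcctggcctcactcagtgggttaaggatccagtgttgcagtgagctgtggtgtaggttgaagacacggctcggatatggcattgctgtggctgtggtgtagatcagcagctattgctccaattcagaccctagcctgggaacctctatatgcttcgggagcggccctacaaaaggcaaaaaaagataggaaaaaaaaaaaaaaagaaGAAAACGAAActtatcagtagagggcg
IFI6 (chr6:84858073-84858322, minus strand): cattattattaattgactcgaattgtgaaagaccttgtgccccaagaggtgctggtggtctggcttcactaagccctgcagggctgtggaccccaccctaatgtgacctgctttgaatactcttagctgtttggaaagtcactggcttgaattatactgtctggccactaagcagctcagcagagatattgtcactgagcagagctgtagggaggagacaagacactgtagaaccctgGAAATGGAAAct
IFIH1 (chr15:68985146-68985395, minus strand): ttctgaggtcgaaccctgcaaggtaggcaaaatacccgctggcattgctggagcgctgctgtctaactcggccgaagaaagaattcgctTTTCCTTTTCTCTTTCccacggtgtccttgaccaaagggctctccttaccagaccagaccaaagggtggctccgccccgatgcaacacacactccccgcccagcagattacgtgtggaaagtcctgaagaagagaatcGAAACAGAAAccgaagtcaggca
UBA7 (chr13:32341301-32341550, minus strand): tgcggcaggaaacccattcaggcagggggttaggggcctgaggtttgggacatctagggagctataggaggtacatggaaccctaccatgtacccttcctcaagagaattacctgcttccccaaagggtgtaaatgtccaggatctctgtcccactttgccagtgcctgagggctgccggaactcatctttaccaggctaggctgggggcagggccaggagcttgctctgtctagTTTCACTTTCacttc
IFIH1 held 3 matches, B2M 2 overlapping ones and the other 4 genes 1 each. The other 13 of these genes rose as well and held none in this window, namely the ISGs DDX60, MX2, EPSTI1, IFI44, HERC6, EIF2AK2 and PARP12, the MHC class I genes NLRC5, TAP1, TAP2, PSMB8 and ERAP2, and CDHR4. B2M was thus the only one of these MHC class I genes with a match, and the absence says only that these letters are not there. Of the listed ISGs that are mentioned for other reasons, ISG15 held 3 matches, RSAD2, SP110 and ZBP1 held 1 each, and GBP1, IFIT2 and MX1 held none.

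Some of the genes that carry the interferon signal rose in the same nuclei. Of 21 tested interferon receptors, STATs and IRFs, 9 rose, none fell and 12 did not pass the test, while DESeq2 called 8 higher and none lower and 1 gene was lower at an unadjusted p under 0.05 with edgeR. IRF9, the DNA-binding partner of STAT2, was at 48.5 and 51.5 CPM with AAV and 2.64 and 4.68 CPM with vehicle (3.73 ± 0.21, adjusted p = 4.90e-07). STAT2 was at 103 and 92.8 CPM against 26.7 and 31.1 CPM (1.76 ± 0.12, adjusted p = 2.57e-06). The STAT2 effect was larger in nuclei with factors than in those without (difference 1.27 ± 0.19, adjusted p = 0.000667), where it was 0.69 and not called (adjusted p = 0.0764). IRF7, which drives later interferon production, rose by 3.15 ± 0.29 (adjusted p = 3.62e-05) and IRF1 by 2.73 ± 0.28 (adjusted p = 9.53e-05). STAT3, the transducer of IL-6 type cytokines (chr12:20407316-20471091), was at 124 and 102 CPM against 54.8 and 52.3 CPM, a rise of 1.08 ± 0.12 (adjusted p = 0.00016) that kept the call in all 14 alternatives run for it.
MHC class I molecules show peptides from inside the cell to T cells. Of 22 listed genes of this pathway 16 were in the files and tested, and 12 rose, with a median log2 fold change of 2.44. B2M, the light chain of MHC class I (chr1:126837721-126844043 in Sscrofa11.1), was at 54.8 and 69.2 CPM with AAV and 1.90 and 1.04 CPM with vehicle (5.42 ± 0.24, adjusted p = 9.07e-08). NLRC5, the activator of MHC class I transcription, was at 98.0 and 90.1 CPM against 1.80 and 1.04 CPM (6.07 ± 0.20, adjusted p = 7.63e-09). The peptide transporter subunits TAP1 and TAP2 rose by 4.48 ± 0.27 and 3.62 ± 0.25. ERAP2, which trims peptides, had 202 counts in the AAV retinas against 1 count in the vehicle retinas. The immunoproteasome subunit PSMB8 had no count in them and was at least 52.4-fold higher. ERAP2 and PSMB8 passed the filter on low counts through the AAV retinas and could hardly be called lower. The counts over this list are thus a description. B2M, NLRC5, TAP1, TAP2, ERAP2 and PSMB8 each kept the call in every alternative in which it was tested, 13 for ERAP2 and 14 for the others.

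Smaller shares than in the ISG and MHC class I lists were called in other groups, as the plot of called genes by list shows. In the IL-6, JAK and STAT3 list 5 of 20 tested genes rose, in the complement list 6 of 13, in the TNF and NF-kB list 4 of 23, in the cell death list 4 of 27, in the neuronal injury list 3 of 21 and in the p53 list 2 of 25, and none of these lists held a gene called lower. DESeq2 called 4, 4, 1, 3, 0 and 0 genes of these lists higher, in the same order, and none lower. At an unadjusted p under 0.05 with edgeR, 1 gene was lower in the IL-6 list, 2 in the cell death list and 1 in the p53 list. Genes near 0 in the vehicle retinas, such as CDKN1A, passed the filter on low counts through the AAV retinas. They could hardly be called lower, and the counts over these lists are a description. CEBPD, a transcription factor of the acute phase, was at 3.80 and 4.45 CPM with AAV and at 0.528 and 0.520 CPM with vehicle (2.94 ± 0.40, adjusted p = 0.001). The nucleic acid sensor ZBP1, which sits on both the ISG and the cell death list, was at 33.7 and 42.1 CPM against 1.37 and 1.13 CPM (4.91 ± 0.23, adjusted p = 9.52e-08). CFLAR, an inhibitor of caspase-8, rose by 1.46 ± 0.18 (adjusted p = 0.000531). CDKN1A, the p53 target that halts the cell cycle, had 1 count in the vehicle retinas and 32 in the AAV retinas, a ratio per UMI of 30.0 with a counting interval from 5.00 to 1219.9 (adjusted p = 0.0116). That call was lost with DESeq2 (adjusted p = 0.102) and when the second AAV or the second vehicle retina was left out.
Of the complement genes, SERPING1, the inhibitor of C1, was at 39.9 and 34.0 CPM with AAV and 19.1 and 20.1 CPM with vehicle (0.91 ± 0.15, adjusted p = 0.00338), a call that was lost in nuclei without factors (adjusted p = 0.221) and when nuclei were thinned to 1000 UMIs. The protease C1R rose by 4.11 ± 0.68 (adjusted p = 0.00613). C1QA and C1QB rose as well, with C1QB at 2.48 and 1.84 CPM against 0.106 and 0.173 CPM, and both are on the list of microglia markers. The call of C1QA was lost with DESeq2 (adjusted p = 0.136) and without the first vehicle retina. The microglia list of 7 genes summed to 26.6 to 36.6 CPM in the members of the AAV retinas of week 4 and 9.46 to 14.5 CPM in those of the vehicle retinas. The T or NK list summed to 5.90 to 8.02 against 0.781 to 1.06 CPM. The B or plasma list summed to 45.5 to 53.2 against 17.2 to 18.3 CPM, with MS4A1 at 0 in every retina. The immune lists were higher over all barcodes too, with microglia at 78.0 to 96.5 against 17.8 to 18.7 CPM, and 368 and 355 barcodes of the AAV retinas had at least 3 UMIs of PTPRC, against 1 and 0 of the vehicle retinas. IGHM, the heavy chain of IgM and among the 12 largest rises, was at 9.51 and 17.4 CPM with AAV and had no count with vehicle (at least 92.1-fold higher). The part of RNA from immune cells in these results was not tested.

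**Figure D3:**
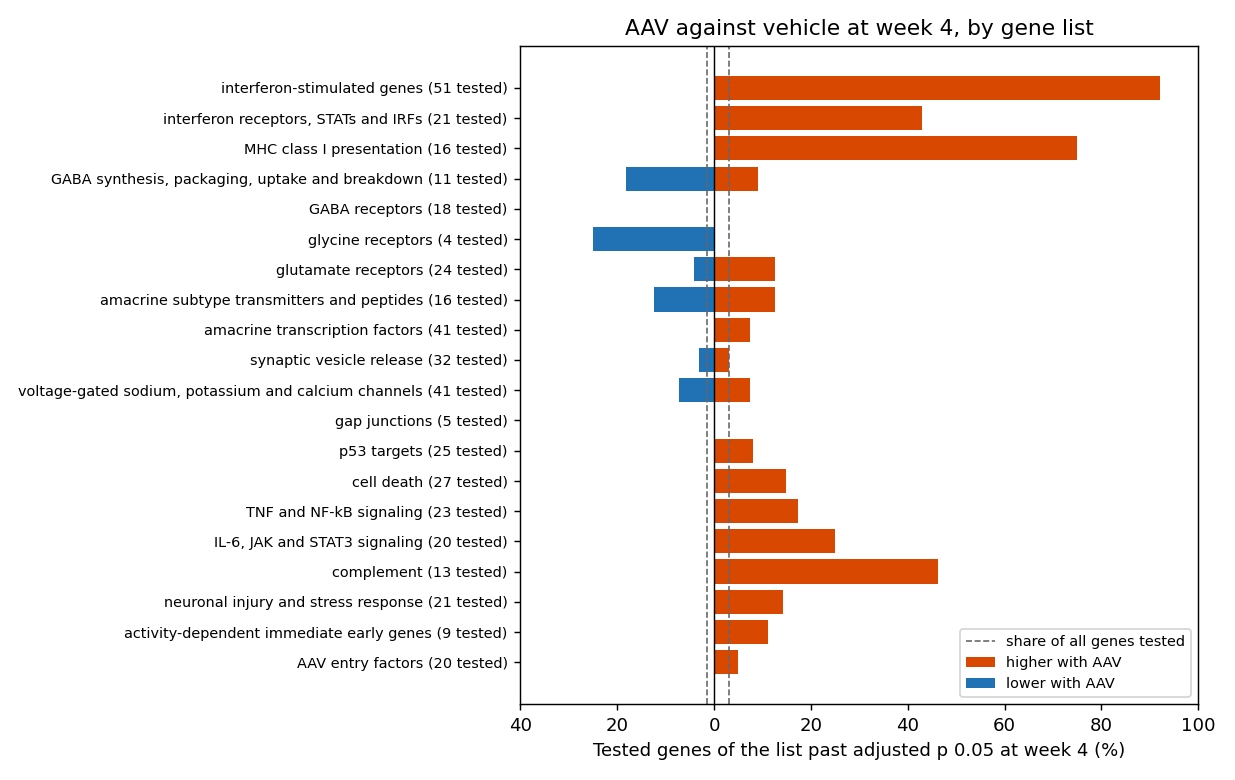
Bars give the percent of tested genes of each of the 20 lists that rose (orange, right) or fell (blue, left) with AAV at week 4 at an adjusted p under 0.05, and dashed lines give the shares over all 18550 genes. The ISG list (92.2%) and MHC class I presentation (75.0%) reach farthest, while GABA receptors and gap junctions hold no called gene. Genes near 0 in the vehicle retinas could hardly be called lower.

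CDHR4, a cadherin-related gene, was at 29.8 and 37.6 CPM with AAV and 0.106 and 0.434 CPM with vehicle (6.82 ± 0.34, adjusted p = 1.44e-07). It lies at chr13:32322030-32329530, next to and on the same minus strand as the ISG UBA7 at chr13:32330536-32341300, and downstream of it. UBA7, which activates ISG15, was at 13.8 and 21.3 CPM against 0.106 and 0.347 CPM (6.13 ± 0.42, adjusted p = 4.70e-06). Reads past the end of UBA7 could be counted for CDHR4, which was not tested.

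Among genes of inhibitory transmission, SLC6A11 and GLRA2 fell and no GABA receptor gene was called. Of 11 tested genes of GABA synthesis, packaging, uptake and breakdown, 2 fell, among them SLC6A11, SLC12A2 rose and 8 did not pass the test, which is 18.2% lower and 9.09% higher against 1.48% and 3.04% over all genes. GAD1 and GAD2 chose the members and were not tested. SLC6A11, the GABA transporter GAT3 (chr13:66998113-67115918), was at 447 and 416 CPM in the AAV retinas of week 4 and at 715 and 690 CPM in the vehicle retinas. It was lower by -0.71 ± 0.088 on the log2 scale (adjusted p = 0.000488), which is 1.63-fold, and kept the call in all 14 alternatives, with -0.57 in nuclei with factors and -1.68 in those without. The effect on SLC6A11 was called as differing between these sets. The list of Müller markers stood at 83.2 to 115 against 184 to 242 CPM without factors and at 262 to 295 against 297 to 298 CPM with them. Its part in this fall was not tested. At week 2 SLC6A11 was at 565 and 657 CPM with AAV and at 617 and 710 CPM with vehicle, so that the eyes overlapped. SLC12A2, the chloride importer NKCC1, had 60.2 and 64.3 against 41.2 and 48.3 CPM (0.47 ± 0.12, adjusted p = 0.0468) and lost its call in nuclei with factors (adjusted p = 0.242) and without the second AAV retina or either vehicle retina. SLC32A1 had a log2 fold change of -0.12 ± 0.21 (adjusted p = 0.822).
None of 18 tested GABA receptor genes passed the test with edgeR or DESeq2, and their median log2 fold change was 0.086. At an unadjusted p under 0.05, edgeR had 6 of them higher and 1 lower. The receptor scaffold GPHN had a log2 fold change of 0.04 ± 0.085 (adjusted p = 0.870). Of 4 glycine receptor genes, GLRA2 fell, at 150 and 142 CPM against 237 and 202 CPM (-0.59 ± 0.10, adjusted p = 0.00492), also in nuclei with factors (-0.45, adjusted p = 0.0166). Of 24 glutamate receptor genes, GRIA1 rose by 0.57, GRIA3 by 0.41 and GRIK4 by 0.34, and GRIN1 fell by 0.44 on the log2 scale. GRIA1 had -0.66 in the nuclei without factors (adjusted p = 0.164). The calls of GRIA1, GRIA3 and GRIN1 were lost without the second AAV retina, that of GRIA3 also without the first vehicle retina and that of GRIN1 also without the second. GRIK4 lost its call without the first AAV retina or either vehicle retina. In nuclei with factors only GRIA1 of the 24 was called, and GRIK4 (adjusted p = 0.0843) and GRIN1 (adjusted p = 0.0690) were not called with DESeq2.
Of 41 voltage-gated channel genes, KCND2, CACNA1E and CACNA2D1 rose and 3 genes fell, KCNC1 and CACNA1A among them, all by less than 1.5-fold. Only KCND2 kept its call when each retina was left out in turn, and it did not pass in nuclei with factors (adjusted p = 0.0537). Of 32 genes of vesicle release, the active zone gene ERC2 rose by 0.47 and the complexin CPLX1 fell by 1.03, calls that were lost without the second vehicle retina and, for CPLX1, without the second AAV retina. None of 5 gap junction genes passed the test with edgeR or DESeq2, and 1 was higher at an unadjusted p under 0.05 with edgeR. Of 41 amacrine transcription factors 3 rose, with NEUROD1 at 17.6 and 24.6 against 10.5 and 10.1 CPM (1.03 ± 0.20, adjusted p = 0.0105, lost without the second AAV retina). TFAP2B was at a log2 fold change of -0.04 ± 0.084 (adjusted p = 0.866). EXT1 was the only called gene of 20 AAV entry factors, at 0.37, and lost the call in nuclei with factors (adjusted p = 0.368) and without the second AAV retina or either vehicle retina.

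**Figure D4:**
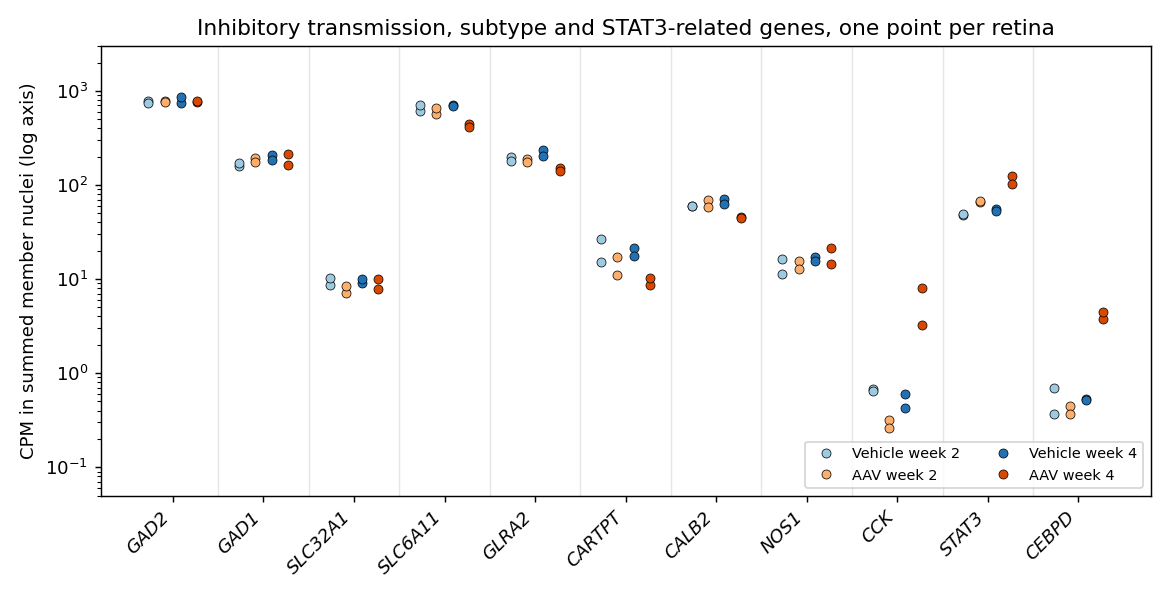
Each point is 1 retina and gives the CPM of the gene over its summed member nuclei on a log axis, in the same colors as the plot of interferon-response genes. The week 4 AAV points of SLC6A11, GLRA2, CARTPT and CALB2 lie below the vehicle points of that week, and those of CCK, STAT3 and CEBPD above, while GAD1 and GAD2 chose the nuclei.

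Amacrine cells fall into many subtypes that differ by peptide and calcium-binding protein. Of 32 such genes in the files, 16 were tested at week 4, of which 2 rose and 2 fell. The 2 that rose, CCK and CRH, passed the filter on low counts through the AAV retinas and could hardly be called lower. The counts over this list are thus a description. CARTPT, a peptide precursor, was at 8.60 and 10.4 CPM with AAV and 21.4 and 17.7 CPM with vehicle (-1.05 ± 0.19, adjusted p = 0.00719), and in nuclei with factors the log2 fold change was -0.91 (adjusted p = 0.0211). The call was lost when nuclei were thinned to 1000 UMIs (-1.09, adjusted p = 0.0708). A UMI of CARTPT was found in 5.64% of members and in 1.15% of ON bipolar nuclei, at median depths of 5505 and 3787.5 UMIs. CALB2 (calretinin) was at 45.2 and 44.8 against 70.3 and 63.1 CPM (-0.57 ± 0.11, adjusted p = 0.0140) and was no longer called in nuclei with factors (adjusted p = 0.0643) or without the first vehicle retina (adjusted p = 0.0818). CCK, cholecystokinin, had a UMI in only 80 members (0.452%). It was at 3.23 and 7.94 CPM with AAV and 0.423 and 0.607 CPM with vehicle (3.37 ± 0.54, adjusted p = 0.00647). It kept the call in the 12 alternatives in which it was tested, although at week 2 it was lower with AAV, at 0.316 and 0.260 CPM against 0.675 and 0.640 CPM. CRH, a stress peptide, was at 2.48 and 4.55 against 0.845 and 0.867 CPM (2.00 ± 0.43, adjusted p = 0.0202), which was lost with DESeq2 (adjusted p = 0.0799) and without the second AAV or second vehicle retina. At week 2 CRH was lower with AAV, at 0.190 and 0.521 against 1.17 and 1.51 CPM, and the effect differed between weeks (difference 3.90 ± 0.74, adjusted p = 0.0321). NOS1, NXPH1, CALB1 and SLC18A2 did not pass the test, with log2 fold changes of 0.11, 0.12, -0.31 and -0.42. SLC17A7, a vesicular glutamate transporter that bipolar cells use, had a UMI in 5.28% of members with factors, 21.8% of those without and 26.4% of ON bipolar nuclei. In these bulk sums, fewer nuclei of a subtype and less RNA per nucleus cannot be told apart.
The ISGs were high in the nuclei of single subtypes as well. In nuclei with at least 3 CALB2 UMIs, the list made up 1753 and 2820 CPM in the AAV retinas of week 4 and 410 and 324 in the vehicle retinas, over 61 to 84 nuclei per retina. In the 16 to 31 nuclei per retina with at least 3 NOS1 UMIs it made up 1875 and 2037 against 395 and 312 CPM.

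The largest falls were mostly in genes that members hold at a lower level than the rest of the retina. Of the 12 named falls, 11 had a vehicle level in members under 50% of that over all barcodes, from 14.4% up. All 12 were also lower with AAV over all barcodes, without overlap, and in members 24.1% of all genes tested lay lower without overlap. Of the 12 largest rises, all were also higher over all barcodes without overlap and 7 had a vehicle level in members under 50% of that over all barcodes. In members 25.8% of all genes tested lay higher without overlap. The named rises and falls were chosen for no overlap in members, which are part of all barcodes. Their separation over all barcodes is thus a description, and the share of all genes that part there was not taken. RGR, an opsin of Müller glia and pigment epithelium (chr14:85485210-85496393), was at 1.57 and 0.194 CPM with AAV and 15.7 and 14.3 CPM with vehicle (-4.00 ± 0.48, adjusted p = 0.00324). RLBP1, a retinal carrier of the same cells, fell by 1.79 on the log2 scale. TF, transferrin, fell by 2.82. The Müller list summed to 239 to 248 against 284 to 292 CPM in members and to 183 to 356 against 569 to 615 CPM over all barcodes. The list of 4 pigment epithelium markers was higher with AAV in members, at 38.7 to 39.4 against 35.3 to 36.0 CPM. The part of RNA from other cells in these falls was not tested.
The largest falls also held 6 genes of the mitochondrial genome. CYTB was at 47.6 CPM in each AAV retina and at 202 and 174 CPM in the vehicle retinas (-1.99 ± 0.11, adjusted p = 2.17e-07), and COX3, ND5, ND2, ATP6 and COX1 fell by between 1.67 and 1.88. ND2 and ND5 were not called among nuclei with at most 0.5% mitochondrial UMIs, nor were ATP6 and COX3 in nuclei without factors (adjusted p = 0.292 and 0.133). The median mitochondrial share of UMIs in members was 0.0223% and 0.0200% against 0.0431% and 0.0414%. These genes are transcribed outside the nucleus.

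At week 2, with 1 animal per group and no test, the summed eyes of the AAV-injected animal were more than 2-fold above those of the vehicle-injected animal, with no overlap of single eyes, for 412 of 19800 genes (2.08%) and below in the same way for 197 (0.995%). Of 48 ISGs, 45 were higher in this way and none lower, with a median log2 ratio of 4.37. ISGs near 0 with vehicle passed the filter through the AAV eyes and could hardly lie lower, so these counts are a description. DDX60 was at 157 and 228 CPM against 0.552 and 0.640 CPM, and B2M at 33.8 and 41.0 against 1.60 and 1.40 CPM. Of 16 MHC class I genes 12 were higher, of 18 GABA receptor genes none in either direction, and of 12 genes of GABA handling none. STAT3 was at 65.5 and 67.2 against 47.9 and 49.0 CPM, which is under 2-fold.
Over both weeks, fitted with 3 animals per group and week as a term, 254 of 19207 genes (1.32%) rose and 28 (0.146%) fell, where the week 4 retinas are shared with the comparison above. Among them were 46 of 51 ISGs and 12 of 16 MHC class I genes, SLC6A11 with -0.53 (adjusted p = 0.0399) and CARTPT with -0.89 (adjusted p = 0.0148). GLRA2 did not pass (-0.43, adjusted p = 0.110). Of 25 tested p53 genes, CDKN1A and SESN2 rose over both weeks and none fell. At week 2, CDKN1A alone of 26 p53 genes was more than 2-fold higher without overlap (3.85%, against 2.08% over all genes). CDKN1A was near 0 in the vehicle retinas of week 4 and could hardly be called lower.
The AAV effect was more positive at week 4 than at week 2 for 34 of 20120 genes (0.169%) and more negative for 43 (0.214%). No ISG of 53 was among them with edgeR, with a median difference of -0.29 on the log2 scale, although at an unadjusted p under 0.05 the effect was more positive for 5 and more negative for 11. ABCA1, a cholesterol exporter, was at 88.1 and 97.9 CPM with AAV against 24.1 and 26.9 CPM at week 4 and at 34.6 and 42.0 against 31.3 and 30.2 CPM at week 2 (difference 1.58 ± 0.20, adjusted p = 0.00201). CYTB did not part between the eyes at week 2, at 102 and 121 against 112 and 134 CPM (difference -1.80 ± 0.18, adjusted p = 0.000154). Week 2 has 1 animal per group, assumed in this test to vary like those of week 4, and the number of genes rested on single animals, with 359, 158, 192 and 141 genes without the first and second AAV and the first and second vehicle retina of week 4.

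Glycinergic amacrine nuclei were chosen by at least 1000 UMIs, at least 2 UMIs of SLC6A9 and none of GAD1 or GAD2. They also held at most 2 UMIs of RLBP1 and SLC1A3 together and met the members' limits on the other genes. The ISG list of the glycinergic nuclei made up 2354 and 3380 CPM in the AAV retinas of week 4 and 457 and 401 in the vehicle retinas, beside 2287 and 3125 against 409 and 396 in GAD-positive nuclei. The AAV effect was more positive in GAD-positive nuclei for 80 of 18316 genes (0.437%) and more negative for 59 (0.322%), tested within the same retinas. Of 53 ISGs, IFI44L, PARP12 and SP110 had a more negative effect in GAD-positive nuclei and 50 did not pass the test.
KYNU, an enzyme of tryptophan breakdown, did not part in GAD-positive nuclei, at 17.0 and 16.7 CPM with AAV against 19.5 and 16.0 CPM, while in glycinergic nuclei it was at 32.0 and 37.5 against 1.53 and 1.92 CPM (difference -4.34 ± 0.34, adjusted p = 2.63e-05). LCP2, an adaptor of T cell and myeloid signaling, was at 9.76 and 8.03 against 10.8 and 6.07 CPM in GAD-positive nuclei and at 13.7 and 21.5 against 0.611 and 0.275 CPM in glycinergic nuclei. The number of genes that differ rested on single retinas, with 790 without the first AAV, 349 without the second AAV and 83 without the first vehicle retina. The microglia list stood at 64.7 to 67.3 CPM in glycinergic nuclei with AAV and 15.0 to 15.9 CPM with vehicle, and at 26.6 to 36.6 and 9.46 to 14.5 CPM in GAD-positive nuclei. In glycinergic nuclei the T or NK list stood at 13.7 to 20.2 against 0.611 to 0.824 CPM and the endothelial list at 50.5 to 78.4 against 25.5 to 26.9 CPM. The Müller list was lower there with AAV, at 94.7 to 126 against 133 to 163 CPM. The part of RNA from other cells in these differences was not tested. TACR1, the substance P receptor, was at 126 and 108 against 186 and 156 CPM in GAD-positive and at 0.528 and 0.421 against 4.89 and 6.32 CPM in glycinergic nuclei (difference 2.99 ± 0.54, adjusted p = 0.0185). TACR1 was thus lower with AAV in both classes, and its glycinergic values with AAV lie near 0. In GAD-positive nuclei its log2 fold change was -0.55 ± 0.11 (edgeR, adjusted p = 0.0172).
Within the GAD-positive nuclei, the AAV effect was more positive in those with factors for 37 of 17249 genes (0.215%) and more negative for 22 (0.128%). A2M, a protease inhibitor, was at 20.2 and 22.4 CPM with AAV against 1.63 and 3.17 CPM in nuclei with factors, and at 117 and 99.6 against 68.9 and 106 CPM in those without (difference 2.78 ± 0.27, adjusted p = 1.08e-06). Leaving out 1 retina gave between 12 and 194 differing genes.

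EGFP is the transgene of the vector, and an EGFP UMI was taken as the sign of a nucleus with its transcript. At least 1 EGFP UMI was found in 9.27% (8.15 to 10.5, exact 95% binomial interval, 226 nuclei) and 21.6% (20.1 to 23.2, 576 nuclei) of members in the AAV eyes of week 2. At week 4 the share was 7.94% (6.78 to 9.23, 155 nuclei) and 11.0% (9.56 to 12.7, 181 nuclei). No member of a vehicle retina had an EGFP UMI, which allows shares of up to 0.113% to 0.186% where the limit is taken as 3 nuclei of the total. Intervals and limits cover counting error only. Of the positive members 70.5% to 83.9% had exactly 1 EGFP UMI, and the share of nuclei with at least 2 was 1.85% and 6.38% at week 2 and 1.28% and 2.32% at week 4. Thinned to 1000 UMIs per nucleus, the share was 2.13% and 3.83% at week 2 and 1.64% and 2.07% at week 4.
In the same order of retinas, EGFP was found in 9.74%, 18.5%, 5.82% and 6.52% of glycinergic, in 17.8%, 36.8%, 15.1% and 15.5% of starburst and in 12.9%, 25.8%, 11.14% and 13.6% of ON bipolar nuclei. The classes differ in depth, and these values are set side by side without a test. Of the immune nuclei of week 4, 7.61% and 5.35% had an EGFP UMI. The part of free EGFP RNA in these shares was not tested.

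**Figure D5:**
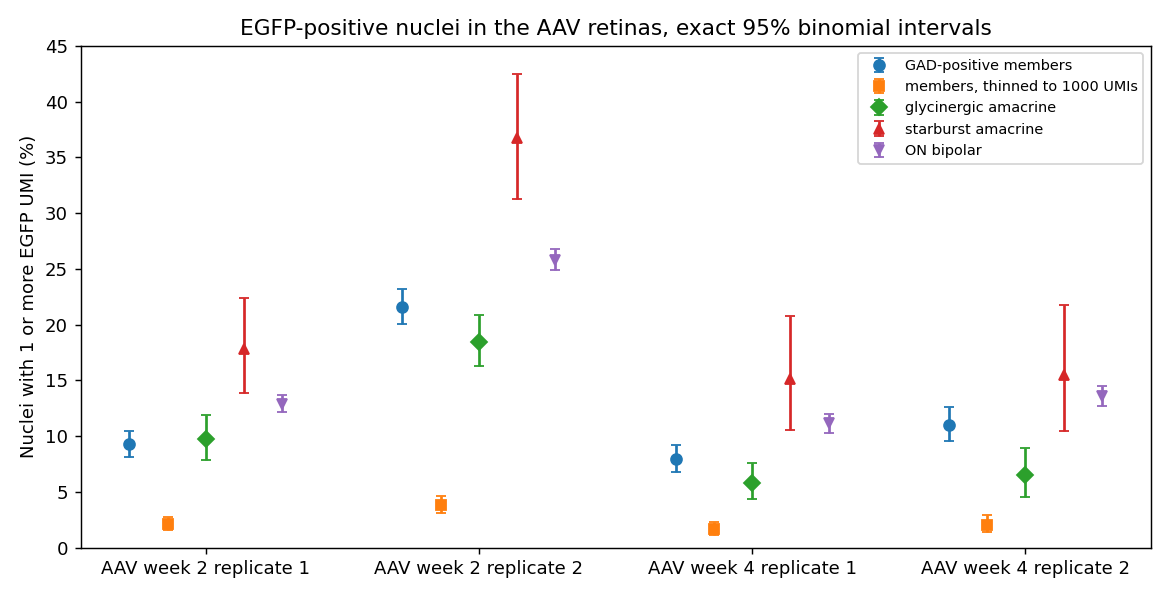
The percent of nuclei with at least 1 EGFP UMI is given for each AAV retina (x axis) and class of nuclei (marker), with exact 95% binomial intervals that cover counting error only. In each retina thinning lowers the share of members to between 1.64% and 3.83%, and the second eye of week 2 is highest in every class.

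EGFP-positive members were deeper, with a median of 6610 to 8696.5 UMIs against 5245 to 5961 in EGFP-negative members, and 77.3% to 80.6% of them had an amacrine factor UMI against 63.4% to 75.6%. Between them, 286 of 18359 genes (1.56%) were higher and 254 (1.38%) lower in EGFP-positive nuclei, with the animal as a block over 3 animals. Of 51 ISGs, GBP1, HERC5, IFIT2, ISG15 and RSAD2 were higher and none was lower, with a median log2 difference of 0.21. The ISG list made up 2860 and 4178 CPM in EGFP-positive and 2954 and 3669 in EGFP-negative members at week 2, and 2672 and 3128 against 2244 and 3124 at week 4. The ISG level thus lay at 2244 CPM or above in members without a detected EGFP UMI, against 382 to 409 in vehicle retinas.
SLC17A6, the glutamate transporter of ganglion cells, was at 47.4, 8.07, 0 and 18.9 CPM in EGFP-positive nuclei of the 4 AAV retinas and at 3.70, 0.945, 1.57 and 2.05 CPM in EGFP-negative ones (log2 difference 2.75 ± 0.47, adjusted p = 0.0364). The mitochondrial gene ND2 was at 106, 44.4, 34.1 and 42.3 against 19.9, 17.2, 17.9 and 23.0 CPM and was higher in each retina (1.34 ± 0.15, adjusted p = 3.65e-05). ITGA4, an integrin, was lower in EGFP-positive nuclei, at 17.3, 22.6, 23.6 and 13.7 against 30.0, 41.9, 38.9 and 55.3 CPM (-1.02 ± 0.18, adjusted p = 0.00661). With each nucleus thinned to 1000 UMIs, 73 genes differed in place of 540, and in nuclei with factors alone 341 did. The values of SLC17A6, ND2 and ITGA4 in these fits are not given here.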

How the data were processed

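Nuclei of 8 retinas from 6 minipigs were sequenced in 4 lanes per retina. The deposited files hold raw counts of UMIs per gene and barcode, which the authors made with Cell Ranger 8.0.0 (per the submitters' processing notes) on Sscrofa11.1 with an added EGFP sequence. The authors' later filters and clusters were not used here. Members were chosen from the raw counts as described, doublets were not called, and UMIs were summed per retina, with both eyes of a week 2 animal as 1 in the models. The members and gene lists were chosen with earlier results of these data known.
Sums were tested with edgeR 4.0.16 in R 4.3.3 (quasi-likelihood, TMM scaling, filterByExpr, robust), and p-values were adjusted by Benjamini-Hochberg over all genes tested, with a threshold of 0.05. Each SE (±) was taken as the size of the log2 fold change or difference divided by the square root of its F statistic. DESeq2 1.42.0, other filters, thinning and leaving out each retina were alternatives. Named genes were the 12 largest rises and 12 largest falls of at least 5 CPM without overlap, up to 6 called genes per list by adjusted p, and the 5 largest differences each way between weeks and classes. The code was tested on simulated data. Promoters came from the RefSeq annotation of Sscrofa11.1. Some genes that passed the rule for named genes are not reported here.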

Additional observations from a re-analysis of the deposited data

Results flagged for a closer look

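The AAV effect differed between groups, by a test of the difference, for 77 genes between weeks, 139 between GAD-positive and glycinergic nuclei and 59 between GAD-positive nuclei with and without amacrine factor UMIs. All values below are differences of the log2 fold change with edgeR. Week 2 has 1 animal per group, whose spread the test takes from week 4, and the number between weeks was 141 to 359 when 1 animal of week 4 was left out.
Between weeks, the effect was more positive at week 4 for SAMD7 by 1.65, ABCA1 by 1.58, TOPAZ1 by 1.49, MYRFL by 1.30 and STK32B by 1.27. It was more negative for COL8A1 at -2.25, FLT1 at -2.19, ABCA6 at -1.83, CYTB at -1.80 and SLC9A4 at -1.73. FLT1 is one of 4 endothelial markers, which summed in members to 14.1 to 14.7 CPM with AAV and 21.4 to 27.2 CPM with vehicle at week 4, and to 20.1 to 27.3 and 13.9 to 19.1 CPM at week 2. At week 4 FLT1 itself was at 7.03 and 5.61 against 12.9 and 19.6 CPM, while PECAM1 overlapped at 6.95 and 7.16 against 7.29 and 6.59 CPM.
In the glycinergic nuclei of the AAV retinas TACR1, at 0.528 and 0.421 CPM, and STK32B, at 2.11 and 1.68 CPM, were near 0. Against glycinergic nuclei, the effect was more positive in GAD-positive nuclei for CDHR4 at 3.73, TACR1 at 2.99, STK32B at 2.27, EPHB1 at 1.56 and SLC4A5 at 1.53. It was more negative for LCP2 at -5.11, KYNU at -4.34, SKAP2 at -3.27, A2M at -3.20 and DAB2 at -3.10. A2M rose from 3.06 and 1.37 to 63.9 and 63.1 CPM in glycinergic nuclei. In GAD-positive nuclei with factors it rose from 1.63 and 3.17 to 20.2 and 22.4 CPM. The nuclei with factors alone were also fitted against glycinergic nuclei, and the A2M value of that fit is not given here. CDHR4 rose in both classes, from 3.67 and 1.92 to 24.0 and 21.5 CPM in glycinergic nuclei.
Between nuclei with and without factors, the effect was more positive in those with factors for A2M at 2.78, ADAMTSL1 at 2.14, MKX at 1.98, GALNT18 at 1.95 and NELL1 at 1.90. It was more negative for ARHGAP15 at -2.67, PLCG2 at -2.60, ABTB3 at -1.91, C18orf32 at -1.86 and GPR63 at -1.63. ARHGAP15 was at 55.5 and 45.6 CPM with AAV and 7.00 and 4.19 CPM with vehicle in nuclei without factors, and at 39.6 and 29.7 against 24.9 and 20.6 CPM in those with. At week 4 the microglia list stood at 43.8 to 57.7 against 7.68 to 18.7 CPM in nuclei without factors. In those with factors it stood at 21.8 to 32.7 against 9.71 to 14.1 CPM, and its part in the differences was not tested.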

How the results depend on the processing

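No paired analysis was possible because the replicate numbers follow accession order and no animal is shared between groups. Of 86 called named genes, 34 kept their call in every alternative in which they were tested (27 in all 14) and 52 lost it in at least 1. GRIA1 (-0.66) and STMN4 (-0.15) changed sign in nuclei without factors.
At week 4 the genes higher and lower with AAV numbered 1099 and 719 with no filter on low counts, 374 and 148 with at least 5 GAD UMIs, 218 and 120 thinned to 1000 UMIs and 122 and 53 in nuclei without factors, a set with fewer nuclei. Leaving out 1 retina gave 417 to 716 higher and 188 to 517 lower, with 517 without AAV replicate 1. Over both weeks, no filter gave 422 and 112, DESeq2 gave 88 lower, and leaving out 1 animal of week 4 gave 162 to 193 higher and 10 to 22 lower, with 162 and 10 without AAV replicate 1 and 162 and 15 without vehicle replicate 2.
Differences between weeks numbered 141 to 359 leaving out 1 animal of week 4, an alternative chosen after seeing the data, against 77 with all animals. Differences from glycinergic nuclei numbered 33 with DESeq2 and 83 to 790 leaving out 1 retina (790 without AAV replicate 1, 349 without AAV replicate 2, 83 without vehicle replicate 1). Those between nuclei with and without factors numbered 12 to 194 (194 and 123 without AAV replicates 1 and 2, 22 and 12 without vehicle replicates 1 and 2). Genes differing by EGFP numbered 200 with DESeq2, 73 thinned, 341 in nuclei with factors and 277 to 594 leaving out 1 animal, with 277 without the week 2 animal and 295 without the second animal of week 4. At week 2, 138 genes were higher and 24 lower past 2 on the log2 scale.
The difference in share was 0.213 points in nuclei without factors, opposite in sign to the main value. The EGFP share at week 4 was 1.28% and 2.32% with at least 2 EGFP UMIs and 1.64% and 2.07% thinned, and that of replicate 2 was 13.5% with at least 5 GAD UMIs and 13.1% in nuclei with factors. The causes of these shifts were not tested. With 2 animals per group at week 4 and 1 at week 2, with each group its own batch, and with GAD counts near the limit in many members, small changes may have been missed. Those that were called, such as GRIK4 and EXT1, are uncertain.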
